A study of Homo sapiens with 12 samples.

Results

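The comparison described here set A549/DDP cells fed in time-restricted cycles (TRF) against the same cells in normal medium (CON), with no cisplatin on either side. A549/DDP is a cisplatin-resistant derivative of A549, an established human lung adenocarcinoma cell line. TRF cells passed each 24 h cycle as 6 h in normal medium followed by 18 h in medium with neither serum nor glucose, whereas CON cells had RPMI-1640 with 2 g/L glucose and 10% fetal bovine serum all the time. Each group had 3 libraries of RNA, so 6 of the 12 libraries of the series enter the comparison. The other 6 libraries, TRF with cisplatin (TRF+DDP) and cisplatin alone (DDP), are used for the common estimate of spread and for one comparison at the end. A gene was described when its mean over all 12 libraries was at least 1 TPM (which gives each gene's share of all measured transcripts, corrected for transcript length). This left 13854 of 60902 listed genes, of which 11874 are protein-coding.

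Both groups carry the cisplatin resistance of one cell line, and the line was maintained in medium with cisplatin. The sources used here do not say whether cisplatin was withdrawn before the TRF and CON cultures were set up. A treatment time is given for PCR assays of the same conditions, but the number of cycles before RNA extraction for the libraries is not stated, nor at which hour of a cycle it took place, or whether CON cells were washed at the times when TRF medium was changed. Serum and glucose were removed together, so the part of each cannot be told apart. The study speaks of biological replicates, but neither it nor the labels say whether the libraries of a group came from separate cultures. The p-values then measure only the spread between these libraries.

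Serum brings growth factors that act through receptor kinases, ERK and AKT, and glucose feeds glycolysis, the pentose phosphate pathway and protein glycosylation. In many cells AKT keeps FOXO factors out of the nucleus, so withdrawal of serum is known to raise FOXO targets, and shortage of amino acids or folding capacity acts through ATF4 or the unfolded protein response. Unfolded proteins in the cytosol release HSF1, which binds heat shock elements upstream of chaperone genes, and feeding resumes ribosome production through MYC and mTOR.

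The cells kept part of an epithelial profile. Of 15 lung epithelial and adenocarcinoma markers 4 were measured above the minimum: the keratins KRT7, KRT8 and KRT18, and the mucin MUC1. EPCAM, KRT19, CDH1 and the surfactant genes SFTPA1 and SFTPB were at or below 0.48 TPM in all 6 libraries. The summed level of the list was 2722 to 2886 TPM in TRF and 1887 to 1955 TPM in CON, nearly all of it from these keratins. MUC1 went the other way, with 4.32 to 5.08 TPM in TRF and 28.1 to 35.1 TPM in CON. It was called lower (log2FC −2.545). Among markers of other cell types, 1 of 16 for leukocytes was tested (ITGAM, while PTPRC was at most 0.01 TPM), 3 of 12 for fibroblasts (COL1A1, FBLN1 and MMP2, while COL1A2 was at most 0.27 TPM), and none of 10 endothelial or 7 erythroid markers. The summed fibroblast list was 142 to 159 TPM in TRF and 300 to 312 TPM in CON, and its part in the results was not tested.

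Libraries of a group resembled each other more than those of the other group. Pearson's r of log2(TPM + 1) across genes was 0.979 to 0.982 within TRF, 0.979 to 0.983 within CON, and 0.940 to 0.946 between them. TRF libraries held 13029 to 13307 genes at 1 TPM or more, and CON libraries 13726 to 13854. Mitochondrially encoded genes took 8.84%, 8.70% and 6.37% of all TPM in TRF, against 10.3%, 10.8% and 10.8% in CON. That difference had the smallest p that 3 against 3 libraries can give (exact permutation test, 2-sided, p = 0.1). TRF replicate 2 was the highest TRF library for 47.0% of genes, and 145 genes stood at least 1.5-fold above both other TRF libraries there, compared with 80 and 66 for replicates 1 and 3. Without TRF replicate 2, 1152 genes were called higher and 2614 lower, beside 1165 and 2375 with it.

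Of the 13854 genes, 3540 (25.6%) passed an adjusted p below 0.05 together with a fold change above 1.5. Higher in TRF were 1165 genes (8.41%) and lower in TRF were 2375 genes (17.1%), so that 67.1% of the changes were falls. Log2 fold changes (log2FC, TRF over CON) are on the log2(TPM + 1) scale from one limma fit, with Benjamini-Hochberg adjustment, and understate the change of genes at low levels. The median over all genes was −0.11. With no minimum fold, 8412 genes (60.7%) differed, 3284 upward and 5128 downward. Counts of list members at an unadjusted p below 0.05 are given below without a share of all genes at that limit. They are to be read beside this already large share. In 3497 of the 3540 genes the TRF and CON libraries did not overlap. Lack of overlap was common, since among all 13854 genes every TRF library lay above CON in 3555 and below CON in 5371. It also follows largely from the call itself. Genes called higher had a median level of 23.3 TPM in TRF and 11.5 TPM in CON, and genes called lower had 5.22 TPM in TRF and 11.4 TPM in CON. TPM values sum to a fixed total, and a change in all cells cannot be told apart from a larger change in some cells. Scaling the libraries to equal quantiles, which removed the shift of the median, gave 1625 higher and 1635 lower genes (50.2% lower). A trimmed mean scaling gave 1621 and 1858 (53.4% lower), and leaving out mitochondrially encoded genes gave 1064 and 2704 (71.8% lower). Of the 2375 falls 1626 stayed called with quantile scaling, 1858 with the trimmed mean scaling and 2371 without mitochondrially encoded genes. Of the 1165 rises 1143, 1165 and 1055 did. None of the 3540 genes turned its direction under these scalings. They moved the median by far less than the fold limit, so few turns could have occurred. The median log2 fold change of 3, 4 and 5 of the 64 tested gene lists changed its sign under the 3 scalings, in lists whose median was at most 0.12 in size.

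**Figure D1:**
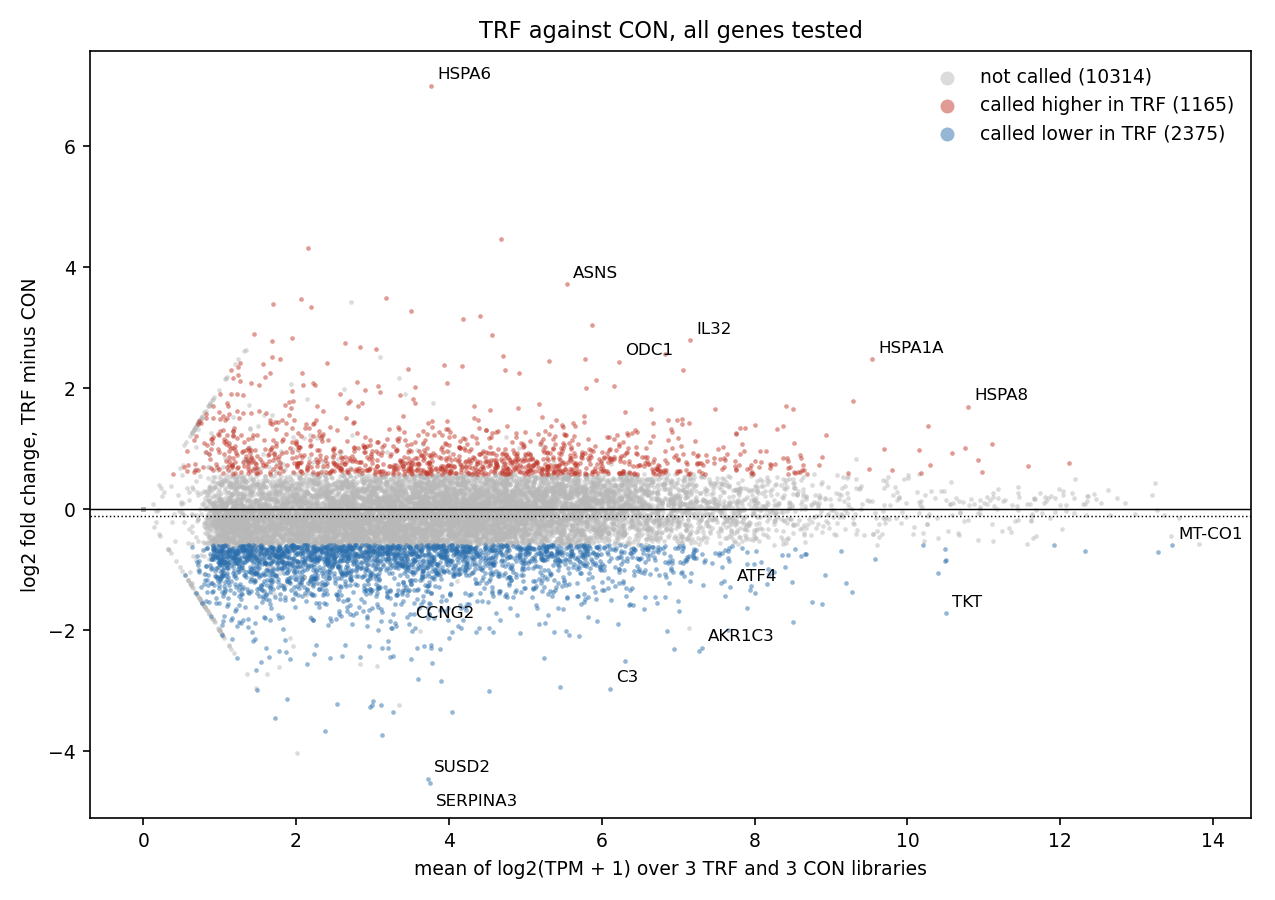
Each point is one of the 13854 genes, with the mean of log2(TPM + 1) over TRF and CON on the horizontal axis, the log2 fold change of TRF over CON on the vertical axis and the median of all genes as a dotted line. Coloured points are the 1165 genes called higher and the 2375 called lower, and the lower side is the more crowded while HSPA6 at 7.004 lies alone at the top.

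The largest rise was that of HSPA6, a strictly stress-inducible HSP70 chaperone. HSPA6 (chromosome 1, bases 161524540 to 161526910 on GRCh38) had 137, 196 and 134 TPM in TRF, against 0.29, 0 and 0.35 TPM in CON. It was thus near absence in CON and abundant in every TRF library, with a log2 fold change of 7.004 (SE 0.26, adjusted p = 6.68e-09). HSPA7 is a near-identical copy, so reads may have been divided between both. ASNS, asparagine synthetase, had 174, 169 and 163 TPM in TRF, against 11.5, 12.3 and 11.6 TPM in CON, with means 14.2-fold apart (log2FC 3.72, SE 0.053, adjusted p = 6.95e-13). Among the next largest rises were genes of structure and signalling. TRAF1, an adaptor of TNF receptors, had 28.7, 29.3 and 30.5 TPM in TRF, against 1.83, 1.59 and 1.69 TPM in CON (log2FC 3.50). KRT15, a keratin of basal epithelium, had 12.9, 12.8 and 13.3 TPM in TRF, against 0.10, 0.27 and 0.40 TPM in CON (log2FC 3.48). In both genes every TRF library was far above every CON library. TAGLN (transgelin, an actin-binding protein), the protease inhibitors SERPINE2 and TFPI2, the sphingosine kinase SPHK1, the cytokine IL32 and the imprinted gene PHLDA2 followed, with log2 fold changes of 3.28, 3.20, 2.57, 2.89, 2.80 and 3.04. IL32 was the most abundant of them, at 375 ± 10.7 TPM in TRF and 52.8 ± 1.47 TPM in CON (SD, n = 3 each). A small nucleolar RNA whose symbol is shared by several loci, SNORA62, had 17.5, 22.5 and 17.4 TPM in TRF and was listed at 0 in all CON libraries. A locus added by the authors' assembly without a gene name, MSTRG.1582, had 111, 136 and 117 TPM in TRF, against 2.14, 6.12 and 6.30 TPM in CON (log2FC 4.48). Both lie outside the rule for named genes and were picked after their values were seen.

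Among the named protein-coding genes SERPINA3, SUSD2 and ELF3 had the lowest log2 fold changes. SERPINA3, an acute-phase protease inhibitor (chromosome 14, bases 94612377 to 94624055), had 1.95, 1.25 and 2.35 TPM in TRF, against 63.3, 61.5 and 65.9 TPM in CON (log2FC −4.52, SE 0.12, adjusted p = 3.85e-11). SUSD2, a membrane protein of epithelial cells, had 2.05, 2.04 and 1.44 TPM in TRF, against 57, 63.96 and 61.8 TPM in CON (log2FC −4.45). The epithelial transcription factor ELF3 had 0.90, 0.21 and 0.35 TPM in TRF, against 19.4, 15.8 and 17.6 TPM in CON (log2FC −3.67). All 3 genes were within a few TPM of absence in every TRF library. TPD52L1, the uroplakin UPK3B, the glutathione-cleaving enzyme GGT5, the sulfotransferase SULT2B1, the laminin receptor BCAM and complement C3 fell by 3.35, 3.35, 3.23, 3.23, 3.01 and 2.96 on the log2 scale. C3 remained measurable, at 23.6 ± 1.74 TPM in TRF and 191 ± 8.14 TPM in CON (SD, n = 3 each). Processed pseudogenes also met the rule, whose reads may come from the genes they were copied from. The 3 TRF libraries listed CDC26P1 at 0, and it was at 19.1, 6.65 and 7.39 TPM in CON. HMGN2P5 had 0, 12.8 and 0 TPM in TRF, against 16.7, 35.6 and 48.7 TPM in CON, a fall that was lost under 7 alternative settings (adjusted p = 0.0585 to 0.125, and 0.00956 to 0.218 under all alternatives).

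**Figure D2:**
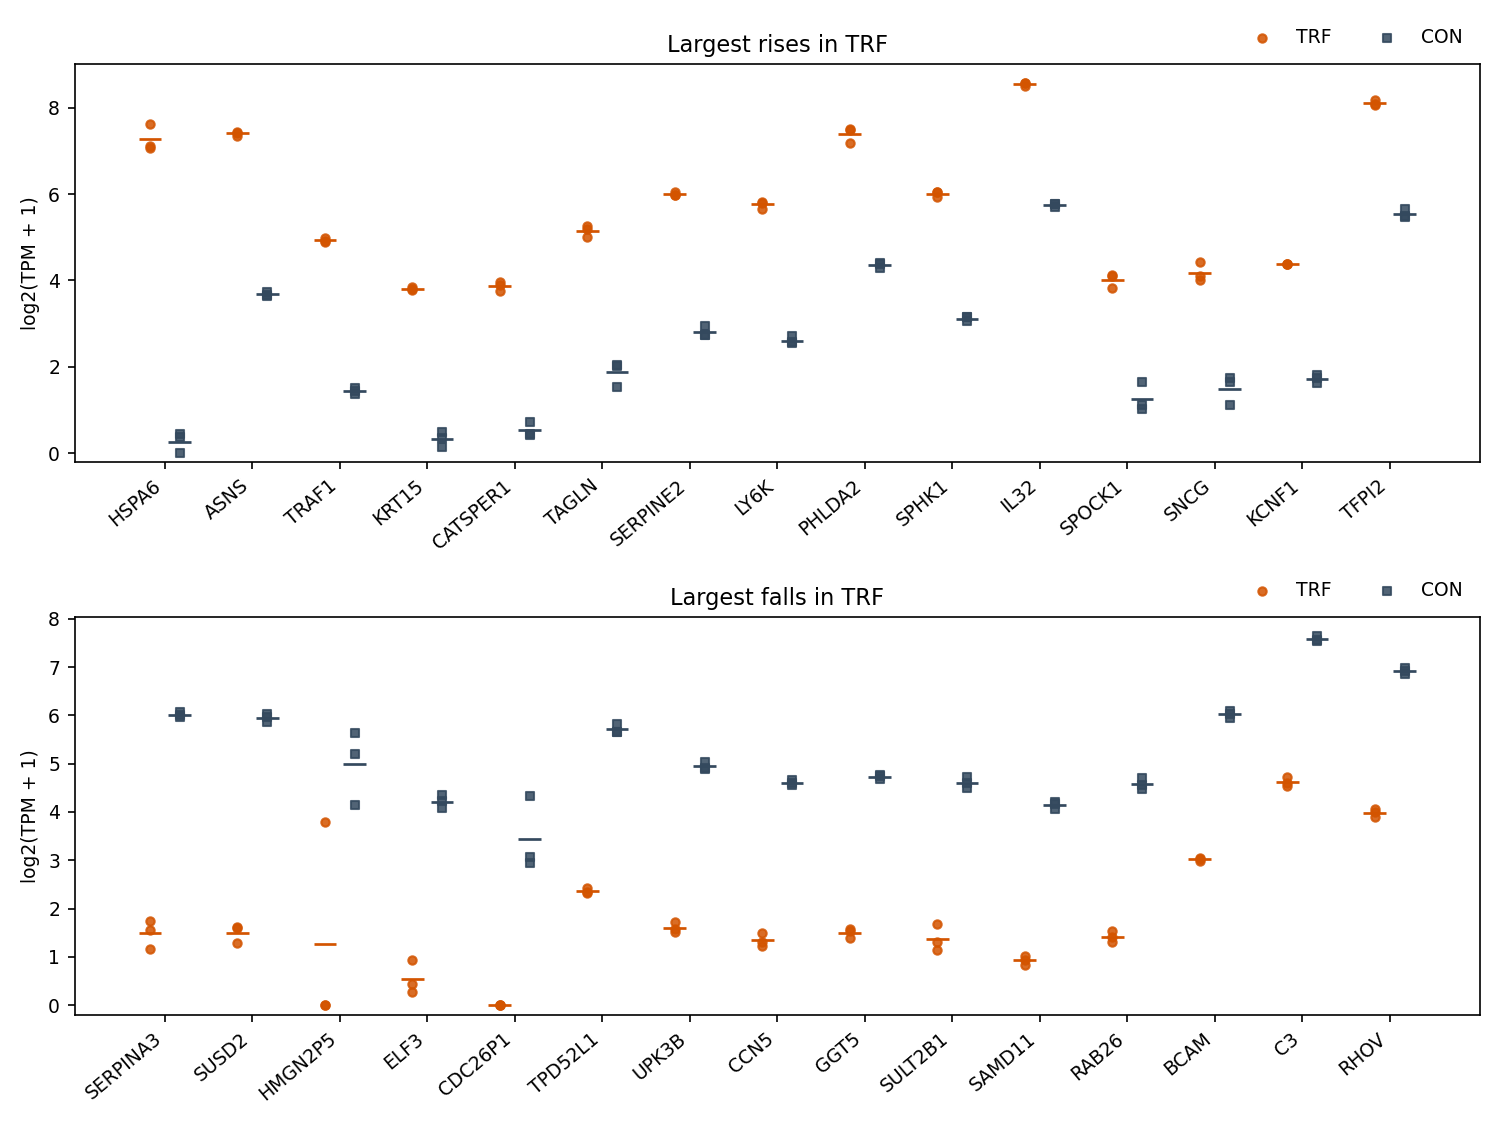
The 15 largest rises (upper panel) and 15 largest falls (lower panel) are set along the horizontal axis, with log2(TPM + 1) on the vertical axis, one point per library (TRF circles, CON squares, 3 each) and a line at the group mean. Genes with overlapping groups were left out by the rule, and the genes range from HSPA6 with TRF at 134 to 196 TPM to SERPINA3 with TRF at 1.25 to 2.35 TPM.

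In absolute TPM other genes led among those called. LGALS1 (galectin 1) had the largest gain of a called gene, at 5803 ± 181 TPM in TRF and 3407 ± 40.2 TPM in CON (SD, n = 3 each), followed by the chaperone HSPA8, the metallothionein MT2A and vimentin (VIM). The largest losses of called genes were in mitochondrially encoded RNAs. MT-CO3, a subunit of cytochrome c oxidase, had 8440.2, 8337 and 6667 TPM in TRF, against 12185, 12902 and 12809 TPM in CON (log2FC −0.70), and replicate 3 was the lowest TRF library. Of 13 mitochondrially encoded subunits 3 were called lower and none higher (list median −0.45). Leaving out TRF replicate 3 gave 1 lower, leaving out TRF replicate 2 gave 6, and the trimmed mean scaling gave 0. Among called nuclear genes, the pentose phosphate enzyme TKT, the actin-sequestering TMSB4X and the lactate dehydrogenase LDHA lost most, and the calcium-binding S100A4 was also among the 10 largest losses of called genes. TKT had 832, 758 and 811 TPM in TRF, against 2632, 2549.7 and 2735 TPM in CON (log2FC −1.72). S100A4 had 394, 366 and 396 TPM in TRF, against 996, 994 and 992 TPM in CON (log2FC −1.37), with all TRF libraries below CON in both genes.

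Cytosolic chaperones had more rises than falls in TRF. Of 13 tested HSP70 and HSP110 genes 5 were called higher and 1 lower (median 0.36), of 30 HSP90, HSP40 and small heat shock genes 10 higher and 1 lower (0.44), and of 8 subunits of the CCT chaperonin, which folds actin and tubulin, 3 higher (0.52). The background is 8.41% higher, 17.1% lower and a median of −0.11. HSPA8, the constitutive HSP70, had 3122, 3241 and 3219 TPM in TRF, against 982, 989 and 978 TPM in CON (log2FC 1.70, adjusted p = 6.37e-12). HSPA1A, the main inducible HSP70, had 1789.7, 1831 and 1659 TPM in TRF, against 304, 301 and 333 TPM in CON (log2FC 2.49). HSPA1B is nearly identical to HSPA1A, so reads of the pair may be misassigned, but both were higher (log2FC 1.70 for HSPA1B). Genes of the HSP90, HSP40 and small heat shock list called higher included ZFAND2A and DNAJB1. ZFAND2A, an arsenite-inducible regulator of the proteasome, had 89.99, 103 and 83.02 TPM in TRF, against 16.6, 15.4 and 15.8 TPM in CON (log2FC 2.45), and the HSP40 protein DNAJB1 had 329, 353 and 325 TPM in TRF, against 135, 137 and 144 TPM in CON (log2FC 1.27). HSP90AA1, the inducible HSP90, had 665, 908 and 689 TPM in TRF, against 325, 324 and 301 TPM in CON (log2FC 1.23), with TRF replicate 2 the highest. FKBP4 and HSP90AB1 had log2 fold changes of 1.20 and 0.99. HSPA2 was the HSP70 member that fell, with 34.99, 30.5 and 32.8 TPM in TRF, against 88.7, 84.9 and 90.02 TPM in CON (log2FC −1.40). TRF replicate 2 was the highest TRF library for 11 of the 13 HSP70 and HSP110 genes. Without that library HSPA6, HSPA8, HSPA1A, HSPA1B and HSPA2 kept their calls. HSF1 itself had 100, 97.9 and 103 TPM in TRF and 93.7, 92.9 and 95.8 TPM in CON and was not called (adjusted p = 0.0712).

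The 250 bases upstream of the start site were searched on both strands for a heat shock element of 3 units, the binding motif of HSF1. It was found in 29 of 10067 promoters of tested genes (0.288%) and in 5 of 45 promoters of the chaperone lists (11.1%). HSPA6 and HSPA8 are shown because they carry it and rose, and CHORDC1, an HSP90 co-chaperone, because it carries 3 overlapping matches and was not called. Capitals mark the motif, sequences run 5′ to 3′ toward the start site on the gene's strand and come from RefSeq (GRCh38.p14). The windows are chr1:161524290-161524539 (plus strand), chr11:123062137-123062386 (minus) and chr11:90223050-90223299 (minus).
HSPA6: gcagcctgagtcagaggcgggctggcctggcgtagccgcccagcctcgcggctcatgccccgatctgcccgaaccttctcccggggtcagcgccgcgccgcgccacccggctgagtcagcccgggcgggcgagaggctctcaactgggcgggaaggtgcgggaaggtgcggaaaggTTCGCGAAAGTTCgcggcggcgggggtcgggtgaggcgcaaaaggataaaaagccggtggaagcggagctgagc
HSPA8: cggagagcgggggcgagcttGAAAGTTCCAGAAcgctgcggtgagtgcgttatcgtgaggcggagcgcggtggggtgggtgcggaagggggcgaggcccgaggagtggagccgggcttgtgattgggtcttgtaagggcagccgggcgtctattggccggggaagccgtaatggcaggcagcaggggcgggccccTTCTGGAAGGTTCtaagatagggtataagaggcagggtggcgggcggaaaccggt
CHORDC1: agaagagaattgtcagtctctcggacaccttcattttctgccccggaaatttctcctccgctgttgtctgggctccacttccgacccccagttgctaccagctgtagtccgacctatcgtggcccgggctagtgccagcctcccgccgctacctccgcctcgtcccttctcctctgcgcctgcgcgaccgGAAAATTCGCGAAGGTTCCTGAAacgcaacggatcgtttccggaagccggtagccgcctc
The HSPA6 match lies 74 bases before the start site, those of HSPA8 55 and 230 bases, and those of CHORDC1 50 to 60 bases. CHORDC1 had 43.2, 71.8 and 59.3 TPM in TRF and 54.6, 60.5 and 52.9 TPM in CON, with overlapping groups and a log2 fold change of 0.02 (adjusted p = 0.915). SERPINH1 and DNAJB6, which also hold the motif, had log2 fold changes of 0.41 and 0.29 and were not called for lack of size. A motif of 2 units, written GAANNTTC or TTCNNGAA, was in 28.9% of these chaperone promoters and in 8.46% of all.

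Proteasome subunits had 7 of 34 called higher and none lower (median 0.23, with 23 and 3 at an unadjusted p below 0.05 by limma), led by PSMD12 of the regulatory lid with a log2 fold change of 0.94. Chaperones of the endoplasmic reticulum and unfolded protein response genes went the other way, with 1 higher and 7 lower of 26 (median −0.26), and the 1 higher gene lost its call without CON replicate 3 or TRF replicate 3. XBP1, the transcription factor that drives that response, had 17.7, 19.3 and 17.4 TPM in TRF, against 46.6, 50.2 and 48.1 TPM in CON (log2FC −1.37). MANF and HERPUD1, both induced by unfolded proteins in that organelle, had log2 fold changes of −0.89 and −0.93. HSPA5 (BiP), the chief chaperone of the endoplasmic reticulum, had 152, 177 and 136 TPM in TRF, against 252, 241 and 246 TPM in CON (log2FC −0.68), a fall under the fold limit with the trimmed mean scaling. Chaperones of the cytosol and of the endoplasmic reticulum thus lay on opposite sides of 0 by their medians.

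Amino acid genes divided. Of 19 regulators of the integrated stress response, which slows translation and raises ATF4 under amino acid shortage, 1 was higher and 9 were lower (median −0.56). ATF4 had 131, 134 and 127 TPM in TRF, against 320.4, 322 and 315 TPM in CON (log2FC −1.28, adjusted p = 6.6e-11). Its partner DDIT3 (CHOP) had 5.69, 6.15 and 5.96 TPM in TRF, against 15.4, 13.5 and 16.1 TPM in CON (log2FC −1.21), and the mTOR inhibitor DDIT4 had 194, 178 and 195 TPM in TRF, against 695, 674 and 700.2 TPM in CON (log2FC −1.86). The heme-regulated kinase EIF2AK1 and the stress cytokine GDF15 had log2 fold changes of −1.27 and −1.26. All 5 of these genes lay below CON in every TRF library. STC2, a secreted glycoprotein, was the member called higher (log2FC 1.29). TRIB3, at 21.8 ± 1.15 TPM in TRF and 29 ± 1.26 TPM in CON (SD, n = 3 each), was below the fold limit. Of 23 amino acid synthesis enzymes 7 were higher and 6 lower (median 0.21). Beside ASNS, the serine enzyme PSAT1 had 139, 153 and 142 TPM in TRF, against 65.9, 67.4 and 66.5 TPM in CON (log2FC 1.11), and the proline enzymes PYCR1 and PYCR3 had log2FC values of 1.22 and 1.10. ASNS, PSAT1, PYCR1 and PYCR3 lay above CON in every TRF library. The folate enzyme SHMT1 had 23.6, 22.2 and 25.03 TPM in TRF, against 74.7, 77.2 and 72.9 TPM in CON (log2FC −1.63). Of 20 cytosolic aminoacyl-tRNA synthetases 7 were higher and 2 lower (median 0.42). WARS1, for tryptophan, had 214, 220.2 and 197 TPM in TRF, against 72.7, 73.7 and 78.1 TPM in CON (log2FC 1.48). AARS1, for alanine, had 74.4, 70.3 and 72.1 TPM in TRF, against 124, 129 and 133 TPM in CON (log2FC −0.82). QARS1, for glutamine, was the other lower member (log2FC −0.96). The transporter of neutral amino acids SLC38A2 had 43.7, 50.5 and 37.3 TPM in TRF, against 85.3, 89.2 and 88.2 TPM in CON (log2FC −0.99), and 4 of 17 transporters were called lower with 1 higher (0 without CON replicate 2 or TRF replicate 1).

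The pattern TGATGNAA, the composite site that ATF4 binds, was in 116 of 10067 promoters (1.15%) and in 8 of 49 promoters of the amino acid synthesis, tRNA synthetase and stress response lists (16.3%). ASNS, AARS1 and the glutathione-degrading CHAC1 are shown because all 3 carry the site while ASNS rose and the other two fell. Capitals mark the site, which stands on the opposite strand where it reads TTNCATCA. The windows are chr7:97872409-97872658 (minus strand), chr16:70289507-70289756 (minus) and chr15:40953221-40953470 (plus), from RefSeq on GRCh38.p14.
ASNS: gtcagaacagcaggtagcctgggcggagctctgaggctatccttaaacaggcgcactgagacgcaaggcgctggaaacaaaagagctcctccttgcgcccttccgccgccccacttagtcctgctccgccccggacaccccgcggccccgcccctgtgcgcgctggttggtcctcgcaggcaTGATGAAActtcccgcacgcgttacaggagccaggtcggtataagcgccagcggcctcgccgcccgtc
AARS1: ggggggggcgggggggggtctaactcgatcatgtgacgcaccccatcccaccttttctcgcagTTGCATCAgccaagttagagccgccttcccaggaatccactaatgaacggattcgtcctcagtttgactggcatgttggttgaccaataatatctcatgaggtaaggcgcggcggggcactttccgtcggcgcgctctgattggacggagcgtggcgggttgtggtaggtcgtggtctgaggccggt
CHAC1: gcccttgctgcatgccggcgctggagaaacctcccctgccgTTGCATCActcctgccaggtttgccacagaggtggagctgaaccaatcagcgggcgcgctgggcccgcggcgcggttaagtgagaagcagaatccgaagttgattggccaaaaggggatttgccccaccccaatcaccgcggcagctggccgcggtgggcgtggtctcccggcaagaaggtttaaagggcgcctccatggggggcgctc
The site lies 68 bases before the start in ASNS, 187 in AARS1 and 209 in CHAC1. CHAC1 had 0.69, 0.90 and 0.84 TPM in TRF against 2.85, 3.78 and 2.88 TPM in CON (log2 fold change −1.20). The other 5 of the 8 genes (GOT1, IARS1, ATF3, PPP1R15B and MTHFD1L) were not called, so among carriers of the site 1 was higher, 2 were lower and 5 were not called.

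Ribosome production genes had many rises and no falls. Of 69 factors that process ribosomal RNA and assemble subunits 36 were called higher and none lower, with a median log2 fold change of 0.61 (at an unadjusted p below 0.05 and no fold limit, 62 higher and 3 lower by limma). NOL6, of the small subunit processome, had 54.8, 51.2 and 52.4 TPM in TRF, against 16.4, 15.9 and 15.2 TPM in CON (log2FC 1.68). IMP4, of the same complex, had 186, 196 and 199.5 TPM in TRF, against 66.4, 68.9 and 71.04 TPM in CON (log2FC 1.48). RRS1 and NOP16, which act on the large subunit, and the histone-binding GRWD1 had log2FC values of 1.22, 1.21 and 1.24. In each of these genes every TRF library exceeded every CON library. Of 32 subunits and factors of RNA polymerases I and III 6 were higher and none lower (median 0.27, with 19 and 4 at an unadjusted p below 0.05 by limma), with POLR1G at a log2FC of 1.34, while the catalytic POLR1A was not called (log2FC 0.19). The 77 cytosolic ribosomal proteins had no call in either direction by the limma fit (median 0.10), while at an unadjusted p below 0.05 with no fold limit 38 were higher and 14 lower. Of 37 translation factors 7 were higher and 3 lower. Initiation factors stood on both sides. The translation repressor EIF4EBP1 had 215, 219 and 211 TPM in TRF, against 76.7, 82.2 and 81.04 TPM in CON (log2FC 1.42), and EIF4B, a helicase cofactor, had 233, 243 and 236 TPM in TRF, against 546, 542 and 552 TPM in CON (log2FC −1.20). The elongation factor EEF2 had a log2 fold change of −0.65, lost with the trimmed mean scaling.

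Polyamine and nucleotide enzymes followed in part. ODC1, ornithine decarboxylase, the first enzyme of polyamine synthesis, had 166, 183 and 173 TPM in TRF, against 29.6, 33.1 and 31.04 TPM in CON (log2FC 2.44, adjusted p = 8.49e-12). SRM, spermidine synthase, had 134, 132 and 145 TPM in TRF, against 39.2, 47.04 and 47.2 TPM in CON (log2FC 1.60). Both enzymes separated the groups in every library. Of 17 polyamine genes 5 were higher and 1 lower, the lower one being the transporter ATP13A3 (log2FC −0.88). The list median was −0.12, of the other sign than most of its calls, and turned positive with quantile scaling. Of 29 nucleotide synthesis enzymes 6 were higher and 3 lower. The pyrimidine enzymes UMPS and CTPS1 had log2 fold changes of 1.22 and 1.05, and the thymidylate-linked DUT had a log2FC of −1.03. MYC, the transcription factor that drives many of these genes, had 72.8, 78.97 and 80.8 TPM in TRF, against 73.9, 71.8 and 76.9 TPM in CON, with overlapping groups (log2FC 0.06, adjusted p = 0.338). Its antagonists MXD3, MNT, MXD4 and MXI1 were all called lower, at log2FC values of −1.18, −0.97, −0.71 and −0.97. The architectural chromatin protein HMGA1 had 1170.4, 1109 and 1195 TPM in TRF, against 346, 328 and 331 TPM in CON (log2FC 1.79). The E-box CACGTG, the site of MYC and MAX, was in 9 of 59 ribosome biogenesis promoters (15.3%) and in 9.02% of all. It was in 7.09% of promoters of genes called higher and 8.97% of genes called lower. In the list of insulin and FOXO genes described next, the share was 23.5% (4 of 17).

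Targets of FOXO factors and genes induced by loss of insulin signals had falls and no rises. Of 20 tested genes none was called higher and 8 were lower (median −0.53). At an unadjusted p below 0.05 with no fold limit limma gave 0 higher and 16 lower. At an adjusted p below 0.05 the counts were 0 and 14, beside 3284 and 5128 of all 13854 genes. CCNG2, a cyclin that restrains growth, had 5.43, 4.62 and 4.33 TPM in TRF, against 20.7, 21.6 and 19.2 TPM in CON (log2FC −1.89). BCL6, a transcriptional repressor, had 5.16, 5.38 and 4.17 TPM in TRF, against 19.4, 19.1 and 19.1 TPM in CON (log2FC −1.78). PIK3IP1, an inhibitor of PI3 kinase, had 3.80, 3.89 and 3.19 TPM in TRF, against 10.5, 10.9 and 12.4 TPM in CON (log2FC −1.41). All TRF libraries were below CON in these 3 genes. The autophagy gene GABARAPL1 had a log2FC of −1.53, and IRS2, the insulin receptor substrate, was not called (1.64 ± 0.28 TPM in TRF and 1.65 ± 0.12 TPM in CON (SD, n = 3 each)). The FOXO pattern GTAAACA was in 1 of 17 promoters of the list and in 1.99% of all. Of 18 clock genes 1 was higher and 6 were lower (3 lower with quantile scaling, median −0.28). The clock output factor DBP had 2.13, 1.43 and 2.19 TPM in TRF, against 13.03, 9.04 and 7.11 TPM in CON (log2FC −1.85). NFIL3 and PER3 had log2FC values of −1.06 and −0.81, and BMAL2 was the higher member (log2FC 0.90). PER1 and NR1D1 had log2FC values of −0.68 and −0.79. The calls of PER1, PER3 and NR1D1 were lost with quantile scaling, and that of PER1 also with the trimmed mean scaling.

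Glucose transporters moved in opposite directions. SLC2A1 (GLUT1) had 25.7, 27 and 20.8 TPM in TRF, against 13.96, 11.97 and 14.9 TPM in CON (log2FC 0.80, adjusted p = 0.00251). This transporter takes up glucose in most cells under basal conditions. SLC2A3 (GLUT3), of higher affinity, had 4.98, 6.20 and 4.47 TPM in TRF, against 18.8, 19.9 and 19.4 TPM in CON (log2FC −1.72). Of 26 genes of glucose uptake and glycolysis 2 were higher (7.69%) and 5 lower (19.2%), near the 8.41% and 17.1% of all genes. The list median was −0.26, and 1 gene was higher without CON replicate 1 or without TRF replicate 2. LDHA had 1044, 1041 and 1117 TPM in TRF, against 1978, 1952 and 1869 TPM in CON (log2FC −0.86). Of the glucose-sensing targets of MondoA, TXNIP and ARRDC4 were below 1 TPM in all 6 libraries, and ARRDC3 was called lower (log2FC −1.34). Hypoxia targets, several of which are also glycolytic regulators, leaned to lower values. Among 17 hypoxia targets 1 was higher (the collagen hydroxylase P4HA2, log2FC 0.72) and 5 were lower. ADM (adrenomedullin) had 45.4, 47.4 and 45 TPM in TRF, against 105, 106 and 104 TPM in CON (log2FC −1.18), and VEGFA had 28.6, 31.4 and 30.9 TPM in TRF, against 55.96, 57.5 and 61.95 TPM in CON (log2FC −0.93). All TRF libraries of both genes lay below CON. The gluconeogenic enzymes PC and PCK2 had log2FC values of −1.37 and −0.81. Of 14 enzymes of the pentose phosphate pathway and NADPH supply 1 was higher and 4 were lower (median −0.31). IDH2 had 67, 54.1 and 62.7 TPM in TRF, against 176, 180.3 and 185 TPM in CON (log2FC −1.55), while ME2 was higher (log2FC 0.93). Of 42 nuclear genes of oxidative phosphorylation 1 was called, NDUFA2 (log2FC −0.87), and the list median was 0.01.

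Of the lists of cholesterol, fatty acid synthesis and fatty acid oxidation genes, only that of cholesterol had a larger share called lower than the 17.1% of all genes. Of 24 cholesterol genes 6 were lower (25%, 3 with quantile scaling) and none higher (median −0.22, with 13 and 4 at an unadjusted p below 0.05 by limma). Fatty acid synthesis had 2 higher and 3 lower of 20 (15% lower), and 4 higher and 3 lower with quantile scaling. The sterol reductase TM7SF2 had 3.89, 3.12 and 4.61 TPM in TRF, against 26.1, 26.4 and 25 TPM in CON (log2FC −2.47). Its groups did not overlap. SREBF1, which drives fatty acid synthesis, had 86.1, 70.5 and 77.1 TPM in TRF, against 164, 174 and 155 TPM in CON (log2FC −1.07), and the desaturases FADS2 and FADS1 had log2FC values of −1.34 and −0.70. FASN and SCD were not called (log2FC 0.40 and −0.20), and the elongase ELOVL1 was higher (log2FC 0.87). In fatty acid oxidation HADH had 14.9, 14.2 and 16.2 TPM in TRF, against 32.6, 32.6 and 33.9 TPM in CON (log2FC −1.08), one of 3 called lower among 20 (15%, 1 with the trimmed mean scaling). CPT1A, which admits fatty acids to mitochondria, had a log2FC of −0.70, lost with the trimmed mean scaling. The hexosamine pathway had members on both sides. In that pathway, which supplies protein glycosylation, UAP1 had 42.1, 104 and 45.7 TPM in TRF, against 22.6, 19.3 and 29.4 TPM in CON (log2FC 1.29), with TRF replicate 2 more than 2-fold above the other TRF libraries. Its call was lost with only the TRF and CON libraries in the fit (adjusted p = 0.0516, and 0.000231 to 0.17 under all alternatives). The O-GlcNAc transferase OGT had 8.27, 11.4 and 7.78 TPM in TRF, against 25.6, 24.2 and 25.9 TPM in CON (log2FC −1.39).

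NRF2 targets and aldehyde dehydrogenases were called lower in larger shares than the 17.1% of all genes. Of 35 NRF2 targets 3 were higher and 12 lower (34.3%, median −0.36), and of 12 aldehyde dehydrogenases 2 were higher and 6 lower (50%, −0.52). Of 33 glutathione and thioredoxin genes 4 were higher (12.1%) and 9 lower (27.3%), both above the 8.41% and 17.1% of all genes. The median of that list was −0.05, beside −0.11 for all genes, and 0.06 with the trimmed mean scaling. AKR1C3, an aldo-keto reductase of steroids and drugs, had 73.2, 68.1 and 70.8 TPM in TRF, against 357, 348 and 341 TPM in CON (log2FC −2.29, adjusted p = 6.37e-12). ALDH1A1, a retinal dehydrogenase, had 98.8, 103 and 98.96 TPM in TRF, against 422, 417 and 368 TPM in CON (log2FC −1.99). HMOX1, heme oxygenase, had 174, 181 and 165 TPM in TRF, against 323, 327 and 326 TPM in CON (log2FC −0.91). TRF libraries lay below all CON libraries in each. NQO1, the quinone reductase, had 1616, 1582 and 1668 TPM in TRF, against 2285, 2308 and 2345 TPM in CON and stayed under the fold limit (log2FC −0.51, adjusted p = 3.18e-08). Catalase (CAT) had a log2FC of −1.34, whereas the mitochondrial superoxide dismutase SOD2 and thioredoxin reductase TXNRD2 had log2FC values of 0.93 and 0.93. SQSTM1, an autophagy receptor that also binds the NRF2 inhibitor KEAP1, had 2431, 2421 and 2482 TPM in TRF, against 1191, 1197 and 1239.5 TPM in CON (log2FC 1.02). Of the aldehyde dehydrogenases called higher, 1 remained without CON replicate 1 or TRF replicate 3. Of 12 drug efflux pumps, ABCC4, ABCC3, ABCC1 and ABCC2 were lower, at log2FC values of −1.52, −1.09, −0.78 and −0.85, and ABCG2 was higher at 1.75 ± 0.41 TPM in TRF and 0.28 ± 0.19 TPM in CON (SD, n = 3 each) (log2FC 1.10). The copper transporter SLC31A1, which also admits cisplatin, was not called (13.9 ± 0.51 TPM in TRF and 13.01 ± 0.60 TPM in CON (SD, n = 3 each)).

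**Figure D3:**
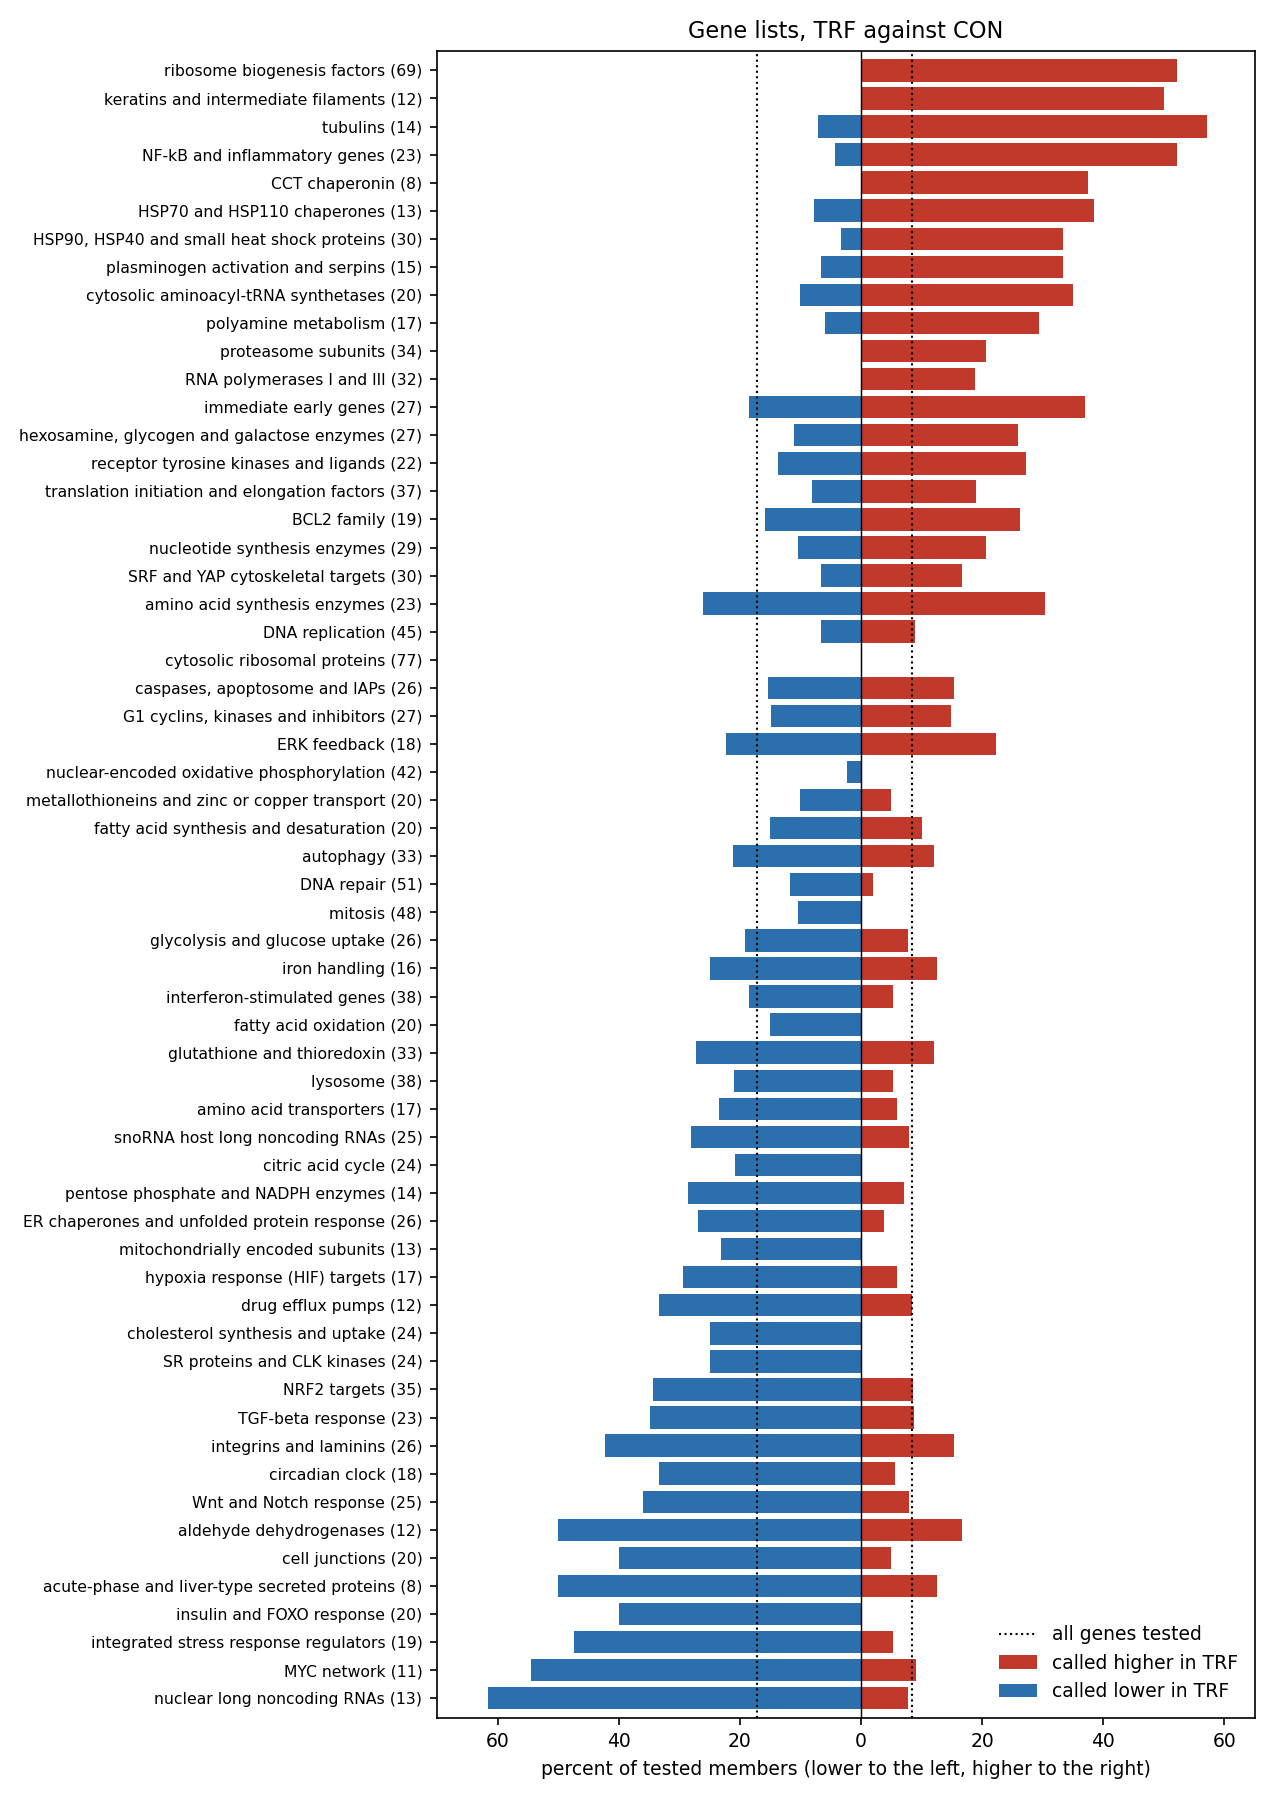
Each row is a gene list with at least 8 tested genes (their number in brackets), ordered by the percent called higher minus the percent called lower, with the percent of its tested genes called higher in TRF as a bar to the right and the percent called lower as a bar to the left. Dotted lines give the shares among all genes, 8.41% higher and 17.1% lower, which are passed on the right by ribosome biogenesis (36 of 69), tubulins (8 of 14) and NF-kB genes (12 of 23) and on the left by the FOXO list (8 of 20) and integrated stress response regulators (9 of 19).

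Genes of NF-kB and inflammation were mostly higher, with 12 higher and 1 lower of 23 (median 0.64). RELB, a subunit of the noncanonical pathway, had 43.8, 42.9 and 44.4 TPM in TRF, against 21.8, 19.7 and 21.4 TPM in CON (log2FC 1.03). IL6 had 51.7, 58.1 and 48.4 TPM in TRF, against 28.2, 29.4 and 24 TPM in CON (log2FC 0.93). The inhibitor NFKBIA had 165, 178 and 172 TPM in TRF, against 109, 109 and 110.1 TPM in CON (log2FC 0.64). All 3 genes had groups that did not overlap. BIRC3 had 12.7, 22.9 and 14.9 TPM in TRF, against 8.08, 8.84 and 10.9 TPM in CON (log2FC 0.76), and CXCL8, at 0.75 to 1.43 TPM in TRF and 0 to 0.71 TPM in CON, was near the detection floor. The calls of BIRC3 without TRF replicate 2 and of CXCL8 without that library or CON replicate 1 were lost. TRF replicate 2 was the highest TRF library in 16 of the 23 genes. Interferon-stimulated genes had 2 higher (5.26%) and 7 lower (18.4%) of 38, with a median of −0.13. The share called lower and the median were near those of all genes (17.1% and −0.11), and 8.41% of all genes were higher. IFITM3, a restriction factor of virus entry, had 67.2, 57.8 and 41 TPM in TRF, against 249.9, 291 and 276 TPM in CON (log2FC −2.30). Of the acute-phase and liver-type secreted proteins 8 of 41 were tested, and 4 were lower. AMBP had 4.79, 4.83 and 4.07 TPM in TRF, against 37.1, 39.2 and 39.98 TPM in CON (log2FC −2.84), and LCN2 (lipocalin 2) was the higher member, with 4.55, 4.72 and 4.42 TPM in TRF, against 0, 0 and 0.11 TPM in CON (log2FC 2.43).

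Immediate early genes, the first targets of growth factor signals, were split, with 10 higher and 5 lower of 27 (median 0.06). FOSL1 (FRA1), an AP-1 subunit, had 123, 130.4 and 135 TPM in TRF, against 21.9, 21.4 and 23.8 TPM in CON (log2FC 2.48, adjusted p = 1.13e-10). The matricellular genes CCN1 and CCN2, targets of YAP and SRF, had log2FC values of 1.02 and 1.51. Other members were not called or were lower. FOS itself had 4.14, 4.30 and 3.62 TPM in TRF, against 3.83, 2.80 and 3.63 TPM in CON and was not called (log2FC 0.19). NR4A2 was lower, with 1.95, 1.94 and 2.13 TPM in TRF, against 7.49, 7.93 and 7.99 TPM in CON (log2FC −1.55). EGR1 was called higher at 0.83 to 1.24 TPM in TRF and 0.17 to 0.41 TPM in CON, a call lost without CON replicate 1 or TRF replicate 2. The AP-1 pattern TGANTCA was in 54 of 874 promoters of genes called higher (6.18%), in 53 of 1673 of genes called lower (3.17%) and in 3.69% of all, as a description. Among receptors and ligands EGFR had 14.6, 15.5 and 12.8 TPM in TRF, against 29.3, 28.9 and 29.6 TPM in CON (log2FC −0.99). IGFBP4, which sequesters insulin-like growth factors, had 271, 271 and 278 TPM in TRF, against 843, 795 and 805 TPM in CON (log2FC −1.57). The receptor AXL had 98.5, 96.95 and 90.03 TPM in TRF, against 47.5, 46.2 and 50.2 TPM in CON (log2FC 0.97).

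Cytoskeletal genes had more rises and junction genes more falls. Of 14 tubulins 8 were higher and 1 lower (median 0.81), the lower one not being called without CON replicate 3. TUBB3, the neuronal class III tubulin, had 654, 622 and 647 TPM in TRF, against 198, 201 and 211 TPM in CON (log2FC 1.65). TUBB2A had 149, 141 and 141 TPM in TRF, against 36.1, 33.2 and 33.7 TPM in CON (log2FC 2.03). The tubulin genes are close in sequence, so reads may be shared among them. Of 12 keratins and intermediate filaments 6 were higher and none lower (median 0.59, with 9 and 3 at an unadjusted p below 0.05 by limma). KRT7 had 1398, 1428 and 1452 TPM in TRF, against 949, 914 and 962 TPM in CON (log2FC 0.60), lost without CON replicate 2 and with quantile scaling. Hemidesmosomes anchor epithelial cells to laminin. COL17A1, a collagen of hemidesmosomes, had 6.80, 8.51 and 5.18 TPM in TRF, against 0.29, 0.26 and 0.50 TPM in CON (log2FC 2.52). Genes of integrins and laminins were called on both sides, more of them lower. ITGB4, the integrin of hemidesmosomes, had 33.3, 30.5 and 30.5 TPM in TRF, against 114, 111 and 121 TPM in CON (log2FC −1.84), and its ligand subunit LAMA3 had 10.5, 12.4 and 9.85 TPM in TRF, against 48.3, 47.3 and 45.97 TPM in CON (log2FC −2.02). Of 26 integrins and laminins 4 were higher and 11 lower. Junctions between cells had falls as well. JUP, plakoglobin of desmosomes, had 71.2, 62.5 and 69.8 TPM in TRF, against 337, 353 and 349.6 TPM in CON (log2FC −2.34). CLDN2, a claudin that forms paracellular channels, had 0.12, 0.14 and 0.07 TPM in TRF, against 5.54, 6.06 and 6.33 TPM in CON (log2FC −2.65). DSP and CGN had log2FC values of −1.14 and −1.27, and 8 of 20 tested junction genes were lower with 1 higher (median −0.40). Of 25 Wnt and Notch genes 2 were higher and 9 lower. DKK1, a secreted Wnt inhibitor, had 55.5, 62.9 and 56.9 TPM in TRF, against 11.3, 10.8 and 10.97 TPM in CON (log2FC 2.30), and its TRF libraries were far above CON. LGR4, a receptor that enhances Wnt signals, had 3.32, 4.20 and 2.59 TPM in TRF, against 18.4, 18.4 and 19.03 TPM in CON (log2FC −2.18). NOTCH3 and its target HES1 had log2FC values of −1.66 and −1.41. In plasminogen activation 5 of 15 were higher and 1 lower. The urokinase receptor PLAUR had 21.9, 28.1 and 22.6 TPM in TRF, against 11.04, 11.9 and 10.7 TPM in CON (log2FC 1.04). TGF-beta response genes had 2 higher and 8 lower of 23, with TGFBI at 254 ± 30.8 TPM in TRF and 735 ± 19.1 TPM in CON (SD, n = 3 each) (log2FC −1.54).

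Few mitosis and DNA replication genes were called. Of 48 mitosis genes none was higher and 5 were lower (median −0.13, beside −0.11 for all genes, with 9 higher and 23 lower at an unadjusted p below 0.05 by limma). NUSAP1, a spindle protein, had 37.1, 35.4 and 47.05 TPM in TRF, against 103, 105 and 94.8 TPM in CON (log2FC −1.33). TOP2A had 35.5, 46.7 and 38.1 TPM in TRF, against 62.97, 60.9 and 61.3 TPM in CON (log2FC −0.62), lost without TRF replicate 1. MKI67 and CDK1 were not called (log2FC −0.33 and 0.02). Of 27 G1 cyclins, kinases and inhibitors 4 were higher and 4 lower (14.8% each, beside 8.41% and 17.1% of all genes). The cyclins CCND1 and CCNE1 rose. CCND1 had 123, 139 and 126 TPM in TRF, against 55.4, 53.98 and 50.7 TPM in CON (log2FC 1.26), and CCNE1 had a log2FC of 1.01. The inhibitors RBL2 and CDKN1B fell, and CDKN1B had 15.8, 17.7 and 15.9 TPM in TRF, against 30.3, 31.8 and 31.5 TPM in CON (log2FC −0.89). Of 45 DNA replication genes 4 were higher (8.89%), CDC6 and MCM10 among them (log2FC 0.83 and 0.86), and 3 lower (6.67%).

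Single genes of growth arrest and apoptosis were called in both directions. CDKN1A (p21), a cell cycle inhibitor, had 121, 129.7 and 126 TPM in TRF, against 116, 114 and 122 TPM in CON. The ubiquitin ligase MDM2 had 24.4, 36.2 and 25.2 TPM in TRF, against 37.2, 41.5 and 45.5 TPM in CON, and neither was called (log2FC 0.09 and −0.54). Both genes, often used as readouts of DNA damage, thus showed no call with TRF alone. MDM2 was nonetheless below CON in every TRF library. It was called lower without CON replicate 1 (log2FC −0.61) or without TRF replicate 2 (log2FC −0.71). GADD45A had 53.7, 63.7 and 61.96 TPM in TRF, against 35.9, 36.9 and 39.4 TPM in CON (log2FC 0.66). PERP, a desmosomal protein, had a log2FC of −1.44. In the BCL2 family 5 of 19 were higher and 3 lower (5 lower without CON replicate 1 or TRF replicate 2). The pro-apoptotic genes BCL2L11 (BIM), BBC3 (PUMA) and BAX were lower and BID and PMAIP1 (NOXA) higher. BCL2L11 had 5.34, 5.14 and 4.69 TPM in TRF, against 15.8, 16.3 and 18.7 TPM in CON (log2FC −1.56), and BID had 63.8, 57.1 and 64.8 TPM in TRF, against 28.5, 30.99 and 30.7 TPM in CON (log2FC 1.02). The survival gene BCL2L1 had 112, 105 and 110.0 TPM in TRF, against 57.1, 56.6 and 57.1 TPM in CON (log2FC 0.93), while BCL2 and MCL1 were not called. In DNA repair 6 of 51 were lower (11.8%) and 1 was higher (1.96%, 2 genes without CON replicate 1 or TRF replicate 3). Both shares were below the 17.1% lower and 8.41% higher of all genes. Among the lower ones CHEK2 had 8.82, 10.3 and 9.88 TPM in TRF, against 23.4, 24.4 and 24.2 TPM in CON (log2FC −1.23).

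By calls with the fold limit, lysosome and autophagy genes were lower in shares near that of all genes. With no minimum fold, 9 of 38 lysosome genes were higher and 25 lower, a wider fall than among all genes. For the 33 autophagy genes it was 7 and 14, and for all 13854 genes 3284 and 5128. Of 38 lysosome genes 2 were higher and 8 lower (21.1% lower, median −0.36), and of 33 autophagy genes 4 were higher and 7 lower (21.2%, −0.15), beside 17.1% lower over all genes. With quantile scaling 4 autophagy genes were higher and 3 lower. CD68 had 31.2, 33.4 and 30.3 TPM in TRF, against 6.14, 7.35 and 6.45 TPM in CON (log2FC 2.09), while the cathepsin CTSL and the cholesterol transporter NPC1 had log2FC values of 0.87 and −1.21. The kinase ULK1, which starts autophagy, had 17.6, 17.3 and 17.1 TPM in TRF, against 38.4, 36.8 and 42.4 TPM in CON (log2FC −1.13), and MAP1LC3B (LC3) had 102, 106 and 99.9 TPM in TRF, against 59.6, 56.9 and 60.2 TPM in CON (log2FC 0.79). TFEB, the regulator of both lists, was not called (log2FC −0.57).

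The share called lower was larger among long noncoding RNAs than among protein-coding genes, a difference that was not tested. Of 1057 tested 58 were higher (5.49%) and 290 lower (27.4%), with a median of −0.29, compared with 8.82%, 16.2% and −0.10 for 11874 protein-coding genes. Classes come from GENCODE v29, and strand was not given, so reads of antisense genes and their partners cannot be told apart. GACAT2 had 0.24, 0.24 and 0.26 TPM in TRF, against 9.58, 10.7 and 9.53 TPM in CON (log2FC −3.13), and MYG1-AS1 had 6.92, 8.62 and 9.49 TPM in TRF, against 0.52, 1.47 and 0.93 TPM in CON (log2FC 2.26). FOXD1-AS1 was called higher although its groups overlapped, with 9.93, 2.38 and 6.77 TPM in TRF, against 0.31, 0.71 and 2.49 TPM in CON, and lost its call under 6 settings. Of 13 nuclear long noncoding RNAs 1 was higher and 8 lower (median −0.62). NEAT1, the scaffold of paraspeckles, had 10.3, 19.03 and 9.74 TPM in TRF, against 33.8, 40.6 and 39.6 TPM in CON (log2FC −1.53). MALAT1, of nuclear speckles, had 20.6, 63.7 and 15.2 TPM in TRF, against 74.8, 66.7 and 89.9 TPM in CON (log2FC −1.46, adjusted p = 0.0189). TRF replicate 2 stood far above the other TRF libraries in both, close to CON for MALAT1, and MALAT1 lost its call without CON replicate 3, TRF replicate 1 or TRF replicate 3 (adjusted p = 0.0594, 0.0648 and 0.0572), and with only the TRF and CON libraries in the fit (0.0995), with 9.75e-06 to 0.282 under all alternatives. Without TRF replicate 2 the log2 fold change of MALAT1 was −2.05. The kinases CLK1 and CLK4 and the splicing-related RSRP1 were among 6 of 24 SR proteins and CLK kinases called lower. RSRP1 had 5.62, 8.88 and 5.49 TPM in TRF, against 26.6, 21.9 and 26.8 TPM in CON (log2FC −1.79). TRF replicate 2 was the highest TRF library in 18 of those 24 genes. GAS5, a host of small nucleolar RNAs, had 253, 274 and 268 TPM in TRF, against 474, 451 and 422 TPM in CON (log2FC −0.76), and 7 of 25 such hosts were lower and 2 higher, among them SNHG15 with 43.2, 41.5 and 35.9 TPM in TRF, against 13.2, 12.8 and 10.8 TPM in CON (log2FC 1.64).

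The direction of change also varied with gene structure. Protein-coding genes with the shortest span, when divided into 10 equal classes (median 3.77 kb), had a median log2 fold change of 0.02, with 13.5% higher and 15.8% lower. Those of the class with the longest span (median 238 kb) had −0.25, with 8.09% higher and 24.3% lower. Genes called higher had a median span of 21.2 kb, genes called lower 38.9 kb and all tested 33.2 kb. The values are descriptive, and gene length, class and expression level are related to each other. Among nuclear chromosomes the share called lower ran from 8.48% on chromosome 21 (10 of 118 genes) to 21.9% on chromosome 19 (188 of 859).

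**Figure D4:**
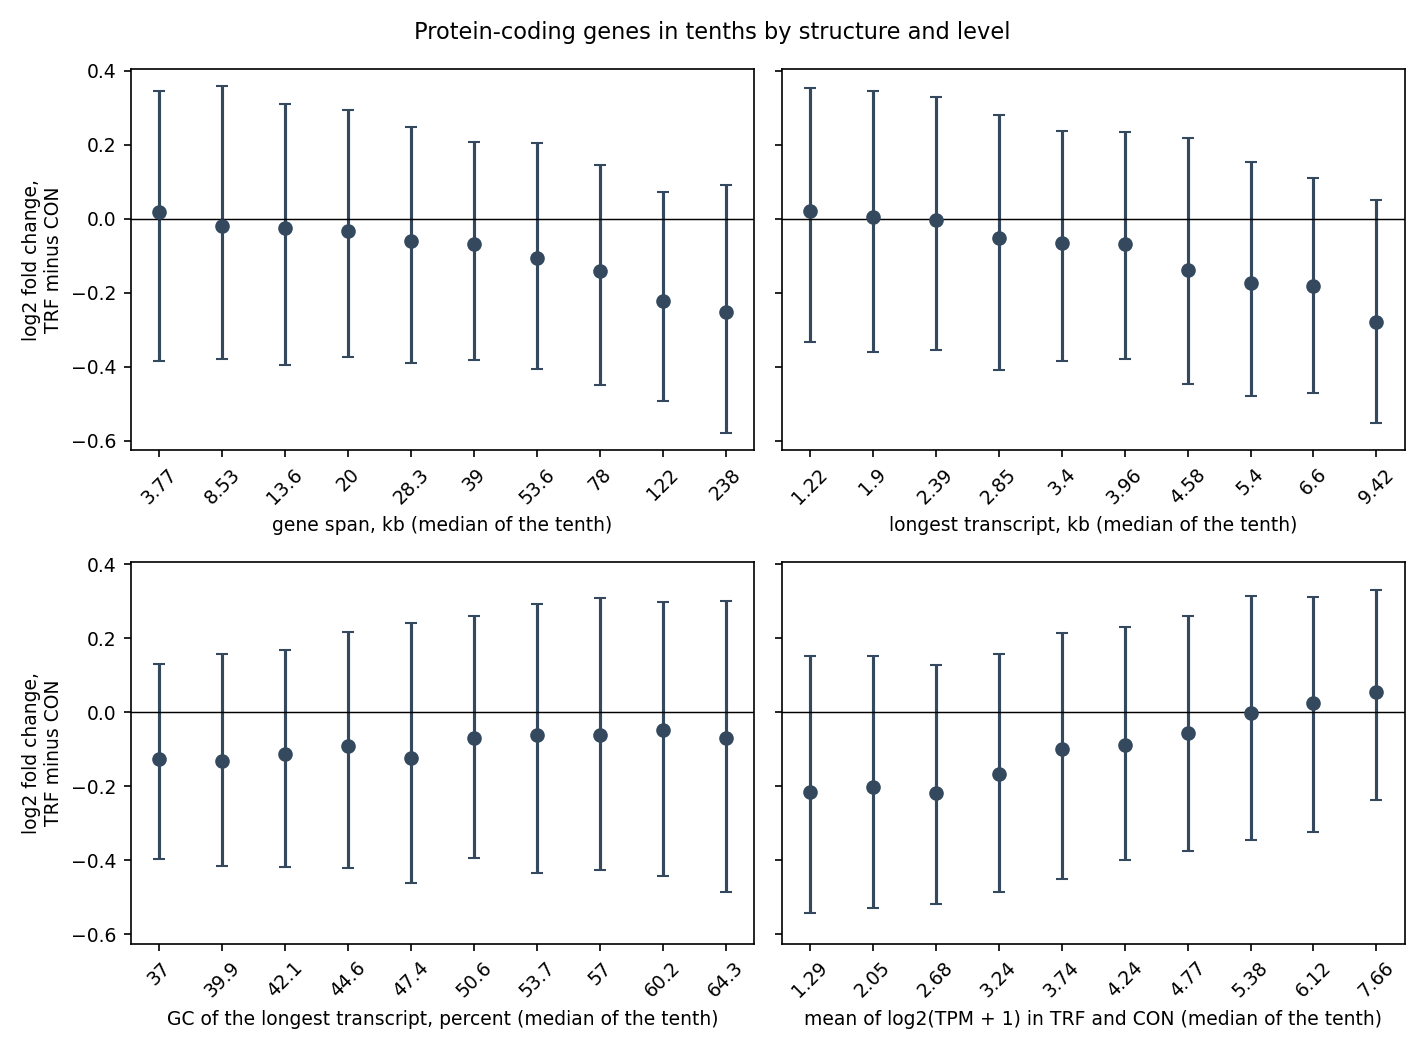
Protein-coding genes in 10 classes of equal size are ordered along the horizontal axes by gene span, transcript length, GC content or expression level, with the median log2 fold change of TRF over CON as a point and its quartiles as bars on the vertical axis. The median goes from 0.02 in the class of shortest span to −0.25 in the longest.

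TRF cells with cisplatin were also set against cells with cisplatin alone, a comparison that shares no library with TRF against CON. There 1631 genes (11.8%) were called higher and 2968 (21.4%) lower. Higher in both comparisons were 786 genes, 67.5% of the TRF rises without cisplatin and 48.2% of those with it. Lower in both were 1642 genes, 69.1% and 55.3%. Opposite calls were 18 among the rises and 11 among the falls. The difference between both comparisons was tested as an interaction, and 4129 genes (29.8%) passed an adjusted p below 0.05. Of the 1165 genes that rose without cisplatin 428 (36.7%) had an interaction, 154 with a larger and 274 with a smaller or opposite change with cisplatin. Of the 2375 that fell 806 (33.9%) had one, 380 larger and 426 smaller or opposite. HSPA6 had a log2 fold change of 7.004 without cisplatin and 7.18 with it, ASNS 3.72 and 4.08, and SERPINA3 −4.52 and −4.63. By list, an interaction was found for 24 of 27 immediate early genes and 32 of 48 mitosis genes, but for 1 of 34 proteasome subunits and 1 of 8 CCT subunits.

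**Figure D5:**
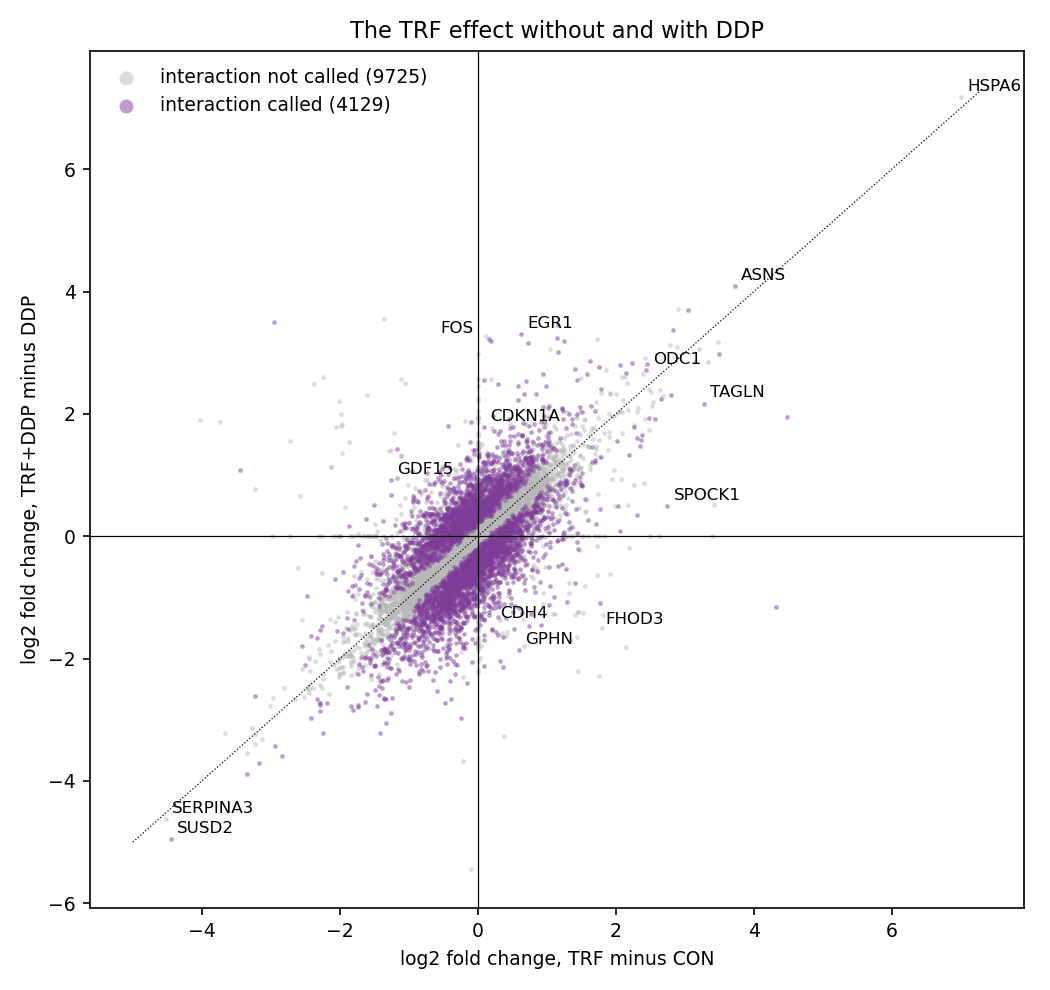
Each point is a gene, with the log2 fold change of TRF over CON on the horizontal axis and that of TRF+DDP over DDP on the vertical axis, the dotted diagonal where both are equal, and the 4129 genes with an interaction in purple. Of the genes called without cisplatin, 93.1% of the rises and 94.9% of the falls have the same sign with cisplatin.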

How the data were processed

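RNA was extracted with Trizol, selected with oligo(dT) and sequenced by a service company. The labels name A549/DDP cells, whereas the extraction protocol names A549. Reads were trimmed with SeqPrep and Sickle, followed by HISAT2 and StringTie. For versions, genome build, strand and counting tool the entry is "not given in the sources used here", and the submitters' processing notes name edgeR. The deposited values are TPM per gene and library in one table of 60902 genes, with group means that were not used. The number of reads per library is unknown. Genes averaging 1 TPM or more over the 12 libraries were tested on log2(TPM + 1) with limma 3.58.1 (R 4.3.3; trend and robust options) in one fit of all 4 groups, with Benjamini-Hochberg adjustment. Called means an adjusted p below 0.05 and a fold above 1.5, and an adjusted p alone for the interaction. On simulated data for 13854 genes the fit found 37 of 50 changes of 0.8, 46 of 50 of 1, 50 of 50 of 1.5 and 49 of 50 of 2 on the log2 scale, and called 4 unchanged genes. Gene classes and positions come from GENCODE v29 (58396 IDs matched) and promoters from RefSeq GRCh38.p14. The 61 pathway lists and 5 marker lists matched 1729 of 1730 genes, and 1489 were tested. Some of these genes and 1 list are counted but not reported here.

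Named genes are the 15 largest changes in each direction among called genes with their own symbol, at least 10 TPM in one group and no overlap, the 10 largest gains and losses in TPM of called genes, up to 5 called members of each list, preset anchor genes, 5 long noncoding RNAs in each direction with at least 5 TPM, and the 5 largest interactions in each direction. Members and lists were chosen with earlier results of these data known. CHORDC1, SERPINH1, DNAJB6, HSF1, KRT8 and the carriers of the ATF4 site were named for their motif or role. Alternatives were quantile and trimmed mean scaling, removal of mitochondrially encoded genes, a pseudocount of 0.1, no minimum level, at least 1 TPM in every library, limma without trend, a test against the fold, only TRF and CON libraries, a replicate block, and leaving out each library.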

Additional observations from a re-analysis of the deposited data

Results flagged for a closer look

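Only differences between effects met a rule for a closer look, since groups of 3 libraries were not examined for outlying samples. The TRF effect with cisplatin (TRF+DDP over DDP) differed from that without it (TRF over CON) for 4129 genes. These were 29.8% of the 13854 genes tested. Among the 357 named and tested genes 176 differed, 34 of them by more than 1 on the log2 scale. The naming rule took in the genes with the largest interactions in each direction, so some were picked for the value reported here. Most other named genes were picked by their change in the same data. The counts among named genes therefore do not show how common such differences are. Values below are the interaction, the log2 fold change with cisplatin minus that without. It was above 0 for 24 of the 34 and below 0 for 10.

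Growth factor and stress-induced genes had the largest values above 0. FOS had 35.4, 49.3 and 26.6 TPM in TRF+DDP, against 2.99, 3.73 and 2.55 TPM in DDP, and 4.14, 4.30 and 3.62 TPM in TRF, against 3.83, 2.80 and 3.63 TPM in CON, an interaction of 2.996. The other immediate early genes were EGR1 (2.68), FOSB (2.43), the ligand HBEGF (1.94), KLF4 (1.34) and the chemokine CXCL8 (1.01). Genes of growth arrest and apoptosis followed. CDKN1A had 960.2, 929 and 949 TPM in TRF+DDP, against 279.7, 268 and 278 TPM in DDP, an interaction of 1.69. Other genes with values above 1 were BBC3 (1.55), MDM2 (1.54), PMAIP1 (1.49), GADD45A (1.19) and GDF15 (2.18). Stress regulators were DDIT3 (1.39) and XBP1 (1.07). Metabolic and clock genes were TM7SF2 (1.5), SLC2A3 (1.04) and NR1D1 (1.14). Noncoding and splicing genes were LINC01629 (2.29), H19 (1.63), SNHG3 (1.08), MIR22HG (1.01), RSRP1 (1.29) and CLK1 (1.02). The pseudogene CDC26P1 had 4.52 and was listed at 0 in TRF, so its value depends on the pseudocount.

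Values below 0 belonged to genes that rose with TRF alone, other than MXD3 (−1.07), which fell in both. FHOD3, an actin nucleator, had 1.55, 1.59 and 1.77 TPM in TRF+DDP, against 4.46, 4.51 and 4.85 TPM in DDP, and 12.2, 13.4 and 11.7 TPM in TRF, against 2.59, 2.93 and 3.37 TPM in CON, an interaction of −2.85. GPHN (gephyrin) had −2.45, the proteoglycan SPOCK1 −2.26, the cadherin CDH4 −2.10, DENND1A −1.90, the receptor ROR1 −1.66, GBX2-AS1 −1.54, WNT7B −1.28 and TAGLN −1.11. The rises of GPHN and DENND1A with TRF alone were lost without CON replicate 1.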

How the results depend on the processing

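No call of a named gene reversed under any alternative. A test against a fold of 1.5 left 1474 genes called (529 higher, 945 lower), and dropping the fold limit gave 8412 (3284 higher, 5128 lower). Requiring a fold above 1.5 left 1845 genes for the interaction. Leaving out one library gave 3448 to 3766 genes called, 1149 to 1207 higher and 2250 to 2614 lower, with the extremes on leaving out TRF replicate 3 or TRF replicate 2 for the falls, and 3453 to 4428 for the interaction. Replicate numbers did not pair the libraries (correlations of same-numbered deviations −0.039, −0.034 and 0.0057), and a replicate block gave 1171 higher and 2373 lower genes. Of 331 called named genes the test against a fold of 1.5 lost 94, the trimmed mean scaling 22, quantile scaling 19 and leaving out mitochondrially encoded genes 4. In all 43 named genes lost a call under some setting other than the test against a fold, 20 of them on leaving out a library, and 5 gained one. The causes were not tested. TPM tables carry no read depth, so the counting error of genes near 1 TPM is unknown.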

Other observations

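Zinc, iron and glycogen genes were not described above. Of 20 tested metallothioneins and zinc or copper transporters 1 was higher and 2 were lower in TRF against CON (4 lower without TRF replicate 2). The higher one, MT2A, a metal-binding metallothionein, had 3237, 2992 and 3423 TPM in TRF, against 1496, 1594 and 1481 TPM in CON (log2FC 1.08), while MT1X stayed under the fold limit (log2FC 0.41). Of 16 iron genes 2 were higher and 4 lower (1 higher without CON replicate 1, CON replicate 2 or TRF replicate 3). The iron importer SLC11A2 had 19.4, 19.6 and 17.9 TPM in TRF, against 32.4, 30.3 and 32.1 TPM in CON (log2FC −0.71), and the transferrin receptor TFRC was not called (log2FC 0.30). Of 27 hexosamine, glycogen and galactose genes 7 were higher and 3 lower. GFPT2, which starts the hexosamine pathway, had 76.3, 79.4 and 76.8 TPM in TRF, against 37.9, 41.9 and 44.3 TPM in CON (log2FC 0.89), and the galactose enzyme GALM had 2.13, 1.77 and 1.80 TPM in TRF, against 7.73, 7.21 and 7.44 TPM in CON (log2FC −1.55).

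Targets of SRF and YAP, which respond to actin and cell shape, had 5 higher and 2 lower of 30. ACTA2, smooth muscle actin, had 14.3, 11.2 and 12.6 TPM in TRF, against 27.2, 28.8 and 31.8 TPM in CON (log2FC −1.15), a fall beside the rise of TAGLN. The CArG box, the site of SRF, was in 24.0% of 25 promoters of the list and in 0.954% of all. The antioxidant response element core was in 6 of 24 promoters of NRF2 targets and in 12.4% of all.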
